A study of Acartia tonsa with 26 samples.

Results

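In eggs of the calanoid copepod Acartia tonsa, 140 of 9590 genes had a higher level in quiescent eggs than in both 7 h and 14 h eggs. The rule asked for a mean of at least 3 in the 3 quiescent libraries, on the authors' normalized scale, and for at least 2 times the mean of the 5 libraries of 7 h eggs and of the 4 libraries of 14 h eggs. Of 142 genes that met these values, 2 were left out by name, DN20787_c0_g1 with a UAF30 match and DN2195_c1_g1 with a C-type lectin domain. The 9590 genes are those of 2 deposited tables joined by identifier, one of genes selected between quiescent and 7 h or 14 h eggs (2777 genes) and one of genes selected among developing stages (9502 genes). Of the members, 82 stood in both tables, 23 in the quiescent table alone and 35 in the developmental table alone.

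RNA-seq was done on pools of whole eggs, in 26 libraries. The quiescent eggs were labelled as gastrulating, were kept at 4 °C without oxygen and were sampled at 26 h (letters A, C and D). Developing (subitaneous) eggs stayed at 16.9 °C. They were sampled at 3 h (4 to 16 cells, letters A to E), at the 7 h gastrula stage (A to E), during organogenesis at 14 h (letters A, B, C, E), while appendages formed at 24 h (A to D) and as nauplii ready to hatch at 42 h (A to E). All eggs came from a population reared without light in 60 L tanks of sea water (salinity 32). Cold, lack of oxygen and age at sampling differ together between quiescent and 7 h eggs, so that their parts cannot be told apart. The replicates are described as technical, and the p-values below measure the spread between such samples.

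Quiescence is an arrest that harsh conditions impose on an egg which would otherwise develop at once, and it ends when conditions improve. A freshly laid egg carries RNA that the mother put there during oogenesis. As an animal embryo develops, much of this maternal RNA is degraded while the embryo's own genome takes over transcription, a handover called the maternal-to-zygotic transition. A 3 h egg of a few cells lies early on this path, and a gastrula lies further along it.

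A member is named here by its assembly identifier, for instance DN23686_c0_g1, and by the protein match or domain that the identifier carries. A match points to a related protein; it does not identify the gene. The values are normalized read counts, and 1 unit stands for 81.8 to 112 reads, depending on the library. The lowest quiescent value of a member rested on between 76 and 87950 reads, with a median of 1207. The scale is not per length, so levels are compared between groups and not between genes.

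The library 42 h D stood apart for these genes and has to be named before the results. Over the members, the values summed to 9558 in 42 h D and to between 396 and 841 in the other 4 libraries of 42 h. The sums were 7129 to 8294 in the quiescent libraries, 13578 to 18318 in 3 h libraries, 2031 to 2386 in those of 7 h, 967 to 1218 in those of 14 h and 696 to 996 in those of 24 h. Library 42 h D was at least 2 times the highest other 42 h library in 114 members (81.4%), against 6.55% of all 9590 genes. Its member level lay within 2 times of the quiescent mean in 112 of 140 members, against 4 to 6 members in the other 42 h libraries. Values at 42 h are therefore given with and without D, and the part of that library's handling or label in them was not tested. The members' share of all values in the tables was 12.3% in 42 h D, 12.7 to 14.0% in quiescent libraries, 15.05 to 16.8% at 3 h and 0.158 to 0.925% in the other 42 h libraries. As these are whole eggs, fewer cells of a type and less RNA per cell cannot be told apart in any of the values below.

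The values that chose the members are a description and are not tested. Which genes met the rule depended on the scaling. Under quantile normalization 119 genes met it, 97 of them members, and under median-ratio rescaling 155, 116 of them members. The quiescent mean exceeded the 7 h mean 2.00 to 15.1 times, with a median of 3.06, and the 14 h mean 2.15 to 111 times, with a median of 6.34. In 119 members every quiescent value lay above every 7 h and 14 h value, which held for 3.74% of all genes. The other 21 members overlapped with 7 h or 14 h eggs, and 19 of these had a coefficient of variation above 50% among quiescent libraries. Over all members that coefficient had a median of 18.1%. The members nearest to the limit on the inside were DN151022_c0_g1, with 11.997 ± 4.16 in quiescent eggs and 5.99 ± 2.18 in 7 h eggs (SD, n = 3 and 5), DN8621_c1_g1 (ratio of 2.00) and DN1155_c1_g1 (2.01). Just outside it stood DN7593_c0_g1, with a match to the transcription factor MEF2, at 9.68 ± 0.885 in quiescent eggs and 4.85 ± 1.46 in 7 h eggs, then DN4958_c0_g1 (1.99) and DN83175_c0_g1 (1.99). A further 194 genes passed the ratios with a quiescent mean above 0 and under 3. The members nearest to that level were the named DN2495_c3_g1 (quiescent mean 3.02), DN4873_c0_g1 (3.09) and DN3618_c0_g1 (3.24).

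The question the rule leaves free is how the quiescent level compares with that of 3 h eggs, before gastrulation. The quiescent libraries also chose the members, so this comparison is described and not tested. The members fell into 3 classes. In 30 members the quiescent mean was at least 2 times the 3 h mean (13% of all 9590 genes did this), in 48 it lay within 2 times of it, and in 62 it was at most 1/2 of it (21% of all genes). Under quantile normalization 35 members were at least 2 times, 81 within 2 times and 24 at most 1/2, so that the border between the last 2 classes depends on the scaling. In 93 members the quiescent mean lay below the 3 h mean, and in 47 it lay above it. The rule itself places every quiescent mean above the 7 h mean. Every quiescent value lay above every 3 h value in 30 members, against 5.77% of all genes. Every quiescent value lay below every 3 h value in 65 members, against 12% of all genes. Over all members the ratio of the quiescent to the 3 h mean ran from 0.0874 to 23.2, with a median of 0.580. The deposited values of all genes summed to 55710 to 59059 in quiescent libraries and to 85926 to 121740 at 3 h, and the authors' scaling between libraries is not given in the sources, so that these ratios hold on the deposited scale.

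**Figure D1:**
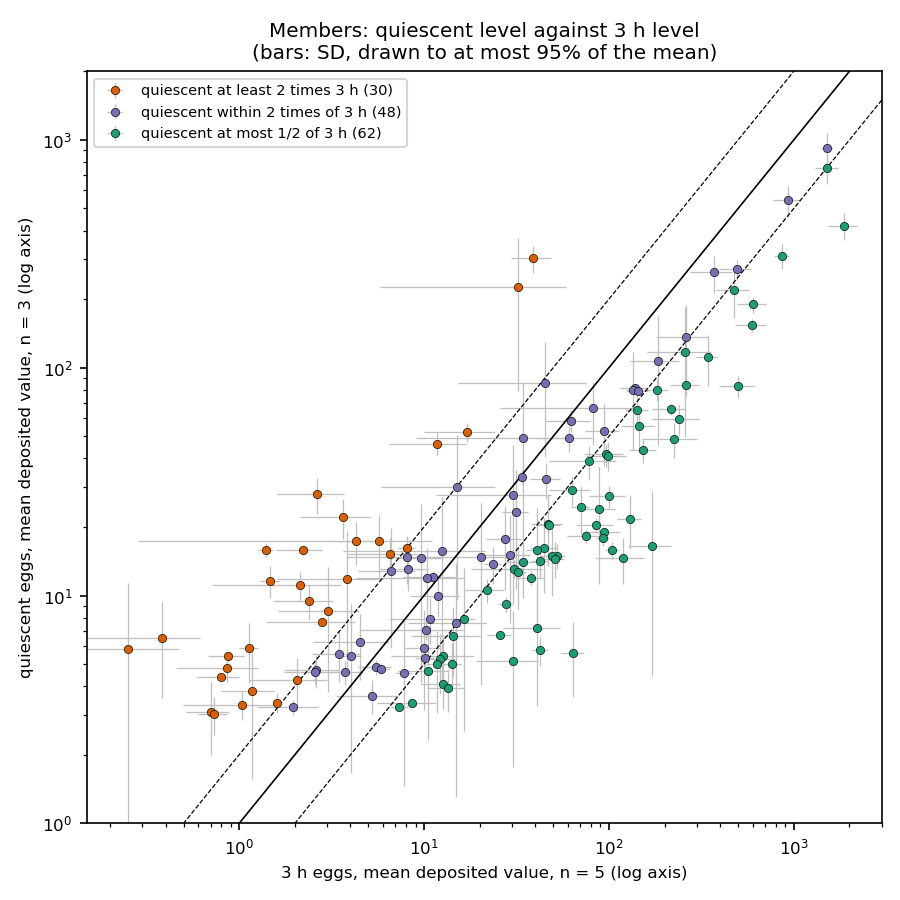
Mean deposited value of each of the 140 members in quiescent eggs (vertical axis, n = 3) against 3 h eggs (horizontal axis, n = 5), both on log axes, with SD bars. The solid line marks equal levels and the dashed lines a ratio of 2 either way: 30 members (orange) lie above the upper line, 48 (violet) between the lines and 62 (green) below the lower line.

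The 3 classes had different courses over the developing stages. Members at most 1/2 of 3 h had a median level of 17.2 in quiescent eggs and of 67.4 in 3 h eggs, and the median was 6.50 for 7 h, 2.37 for 14 h, 1.46 for 24 h and 1.06 for 42 h without D. Members within 2 times of 3 h had medians of 14.7 in quiescent eggs and 14.96 in 3 h eggs, then 5.59 for 7 h, 3.49 for 14 h, 1.77 for 24 h and 1.48 for 42 h without D. In these 2 classes a 7 h mean below the 3 h mean follows from the rule and the cut for all 110 members. The 14 h mean was below the 7 h mean in 106 of the 110. No member of these classes had a 24 h mean above its quiescent mean. Members at least 2 times 3 h had a median of 10.3 in quiescent eggs, 2.17 in 3 h eggs, 1.53 in 7 h eggs, 1.83 in 14 h eggs, 2.18 in 24 h eggs and 2.15 in 42 h eggs without D. Single members of this class departed from these medians, and 1 of the 30 had a higher mean at 24 h, and 7 a higher mean at 42 h without D, than in quiescent eggs. The classes are cut on the 3 h level, so their difference at 3 h follows from the cut.

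**Figure D2:**
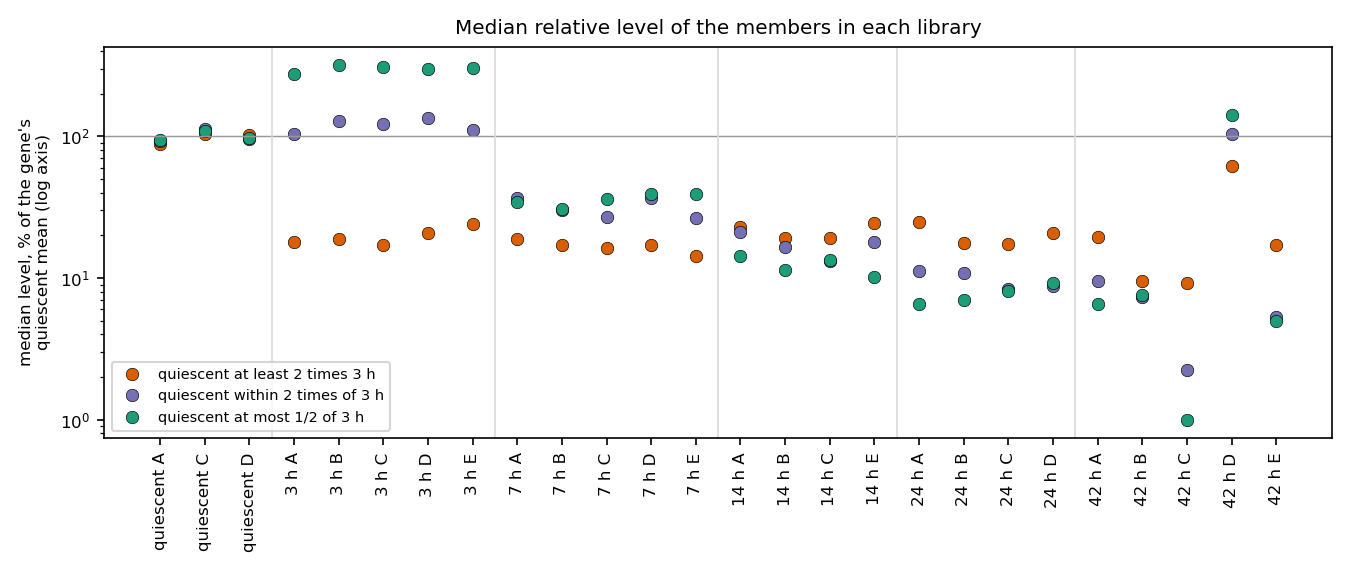
Median level of the members in each of the 26 libraries, as a percent of each gene's own quiescent mean (vertical log axis), for the 3 classes by quiescent over 3 h level; the grey line marks 100%. The 3 h libraries separate the classes, both lower classes decline over 7 h, 14 h and 24 h, and library 42 h D stands at 61.7% (orange), 105% (violet) and 141% (green) while the other 42 h libraries lie under 20%.

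The unnamed members with the highest quiescent means were higher still in 3 h eggs. DN23686_c0_g1, which carries no name, had 1084, 799 and 879 in quiescent libraries A, C and D, against 1358, 1533, 1451, 1654 and 1559 in the 3 h libraries A to E. It had 146 to 256 at 7 h, 65.2 to 93.7 at 14 h and 49.3 to 95.1 at 24 h, so that quiescent eggs lay above every later stage but below 3 h eggs, with no overlap. At 42 h it had 1286 in D and 5.201 to 56.4 in the other libraries. DN67392_c0_g1 (quiescent mean 754 ± 111, 3 h mean 1519 ± 217; SD, n = 3 and 5) and DN7087_c0_g1 (543 ± 82.7 and 925 ± 158), which has a predicted signal peptide, had the same order of group means over these stages. The 5 highest members together held 38.5% of the summed quiescent member means.

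DN2533_c0_g1 carries an EF-hand, a domain that commonly binds calcium. It had 153, 164 and 144 in quiescent libraries, against 510.1, 647, 759.6, 493 and 552 at 3 h and 43.8 to 70.7 at 7 h. The 3 groups did not overlap, and the quiescent mean was 0.259 times the 3 h mean and 2.68 times the 7 h mean. A nameless member of the same assembly cluster, DN2533_c0_g2, had 463, 439 and 355 in quiescent libraries, against 1571, 2184, 2277, 1567 and 1737 at 3 h and 120.3 to 186 at 7 h. In all, 27 members share the first number of their identifier with another member, over 13 such numbers, and 8 of these numbers had all their members in 1 class. Genes with a shared number may be parts or copies of 1 transcript, so the 140 members stand for 126 distinct numbers.

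**Figure D3:**
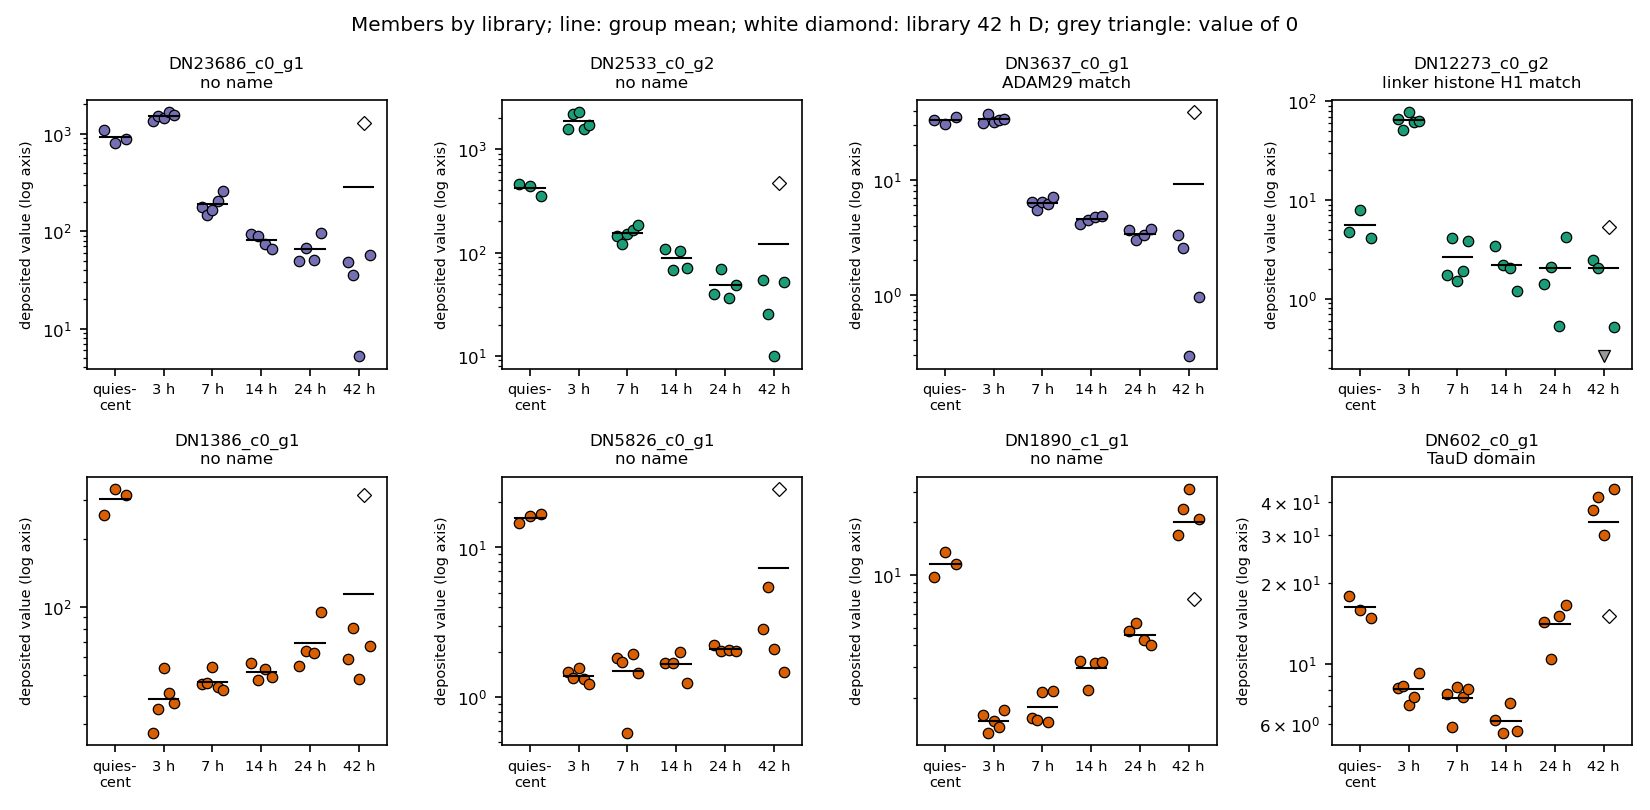
Deposited value of 8 members in each library (log axes), with quiescent eggs at the left of the 5 developing stages; the line is the group mean, the white diamond library 42 h D, a grey triangle a value of 0, and colours are the classes (orange, at least 2 times 3 h; violet, within 2 times; green, at most 1/2). DN23686_c0_g1, DN2533_c0_g2, DN3637_c0_g1 and DN12273_c0_g2 decline after 3 h with quiescent eggs above 7 h eggs, whereas DN1386_c0_g1 and DN5826_c0_g1 are high in quiescent eggs and 42 h D alone, and DN1890_c1_g1 and DN602_c0_g1 reach their highest levels in 42 h libraries other than D.

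Few members had a name. Only 15 (10.7%) had a protein match or domain, against 46.2% of the 9590 genes and 28.9% of the 1009 genes with a quiescent mean of at least 3. A predicted signal peptide, the mark of a protein entering the secretory route, was present in 19 members (13.6%). It was present in 14.95% of all genes and in 11.7% of those with a quiescent mean of at least 3. Of the 19 members, 16 were at most 1/2 of 3 h, 2 within 2 times and 1 at least 2 times. The share of signal peptides by class over all genes was not computed. Of the named members, 6 were at most 1/2 of 3 h, 5 within 2 times and 4 at least 2 times.

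Among named regulators of chromatin and transcription, DN12273_c0_g2 matches a sea urchin linker histone H1, a protein that packs the DNA between nucleosomes. It had 4.77, 7.92 and 4.15 in quiescent libraries, against 66.7, 51.7, 77.0, 62.3 and 63.3 at 3 h. Quiescent eggs thus had 0.0874 times the 3 h level, the smallest ratio of all 140 members, and 2.14 times the mean of 7 h eggs, whose values of 1.498 to 4.09 stayed just under the lowest quiescent value. Within letters A and B alone, which hold 1 quiescent library, its quiescent level was 1.64 times that of 7 h eggs. DN906_c0_g1 matches human DBP, a bZIP transcription factor with a daily rhythm in mammals. It had 9.26, 11.8 and 10.6 in quiescent libraries, against 15.8, 22.1, 30.2, 20.3 and 20.8 at 3 h and 3.76 to 4.67 at 7 h, again with no overlap between the 3 groups.

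Of the members with matches to enzymes and other proteins, DN3637_c0_g1 stood at its 3 h level. It matches human ADAM29, of a family of membrane-bound metalloproteases, and had 33.7, 30.8 and 35.2 in quiescent libraries, against 31.6, 37.5, 32.0, 33.5 and 34.4 at 3 h. The groups overlapped (ratio of 0.983), while 7 h eggs had 5.50 to 7.14 and 14 h eggs 4.11 to 4.87. DN509_c2_g1, with a malic enzyme domain and plant matches, likewise overlapped with 3 h eggs, with 4.59, 5.06 and 4.69 in quiescent libraries against 4.87 to 6.72 at 3 h and 1.89 to 2.63 at 7 h; malic enzyme turns malate into pyruvate. DN17026_c0_g1 matches zebrafish RIR1, the large subunit of ribonucleotide reductase, which makes the building blocks of DNA. It had 5.57, 4.45 and 4.07 in quiescent libraries, against 3.87, 3.03, 1.97, 1.74 and 2.42 at 3 h, so that every quiescent value was above every 3 h value, by 1.80 times on the means.

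Both members with a LPMO_10 domain, known from copper enzymes that cleave chitin or cellulose by oxidation, were below 3 h. DN2498_c0_g1 had 11.1, 12.14 and 12.6 in quiescent libraries, against 27.3 to 43.7 at 3 h, 2.73 to 4.68 at 7 h and 0.292 to 0.734 at 14 h. DN227_c1_g1 had 6.39, 6.82 and 6.85 in quiescent libraries, against 20.48 to 30.4 at 3 h, 2.63 to 3.596 at 7 h and 0.555 to 1.61 at 14 h. Both kept their groups apart, at ratios to 3 h of 0.315 and 0.261. DN3618_c0_g1 matches the fly fucosyltransferase FucTA, which adds fucose to glycoproteins, and had 3.15, 3.19 and 3.37 in quiescent libraries, against 5.99 to 7.96 at 3 h and 1.46 to 1.73 at 7 h.

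The values of 2 named members split by letter as well as by group. DN103783_c0_g1 matches the splicing factor SRSF2 and had 6.38 in quiescent A but 41.8 and 42.1 in quiescent C and D, against 5.70 and 6.28 in 3 h A and B and 14.9 to 25.8 in 3 h C, D and E. DN80298_c1_g2 matches BTF3L4, related to a subunit of the complex that meets new polypeptides at the ribosome, and had 2.46 in quiescent A but 22.3 and 22.4 in C and D, against 3.63 and 6.06 in 3 h A and B and 8.85 to 23.0 in 3 h C, D and E. Letters A and B carry their own sheet numbers in the labels, which begin again with letters C, D and E. The set of A and B holds 1 quiescent library and the set of C, D and E holds 2. The quiescent level within A and B is thus that of quiescent A, with no replicate. Within A and B, the quiescent level was 1.01 times that of 7 h eggs for DN103783_c0_g1 and 0.517 times for DN80298_c1_g2, and within C, D and E it was 7.85 and 4.77 times. Of the 140 members, 92 met the rule in both sets of letters, 16 in A and B alone and 32 in C, D and E alone. Of the 15 named members, 9 met it in both sets. DN4873_c0_g1, at 1.61 times 14 h eggs, and DN2495_c3_g1, with a quiescent level under 3, missed it in A and B. DN602_c0_g1 missed it in C, D and E, at 1.93 times 7 h eggs. With each set by itself, 28 members for A and B and 34 for C, D and E were at least 2 times 3 h, and 70 and 61 were at most 1/2 of it.

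The 30 members at least 2 times 3 h included 4 with a name, and in 27 of the 30 every quiescent value lay above every 3 h value. The cut favours such a separation, which held for 5.77% of all genes. DN12698_c0_g1 carries a FAM195 domain, whose human members are also called MCRIP proteins. It had 3.88, 6.92 and 6.78 in quiescent libraries, against 0.944 to 1.27 at 3 h and 0.767 to 1.52 at 7 h, and it stayed at 0.196 to 1.15 in all 5 libraries of 42 h. DN2495_c3_g1 matches beta tubulin, a building block of microtubules, and had 2.37, 3.28 and 3.42 in quiescent libraries, against 0.598 to 0.933 at 3 h. Tubulin genes are alike in sequence, so reads may be split between copies. DN602_c0_g1 carries a TauD domain, found in oxygenases that use 2-oxoglutarate and molecular oxygen, and matches a bacterial protein. It had 17.9, 15.8 and 14.9 in quiescent libraries, against 8.16, 8.28, 7.01, 7.53 and 9.26 at 3 h, 10.4 to 16.5 at 24 h and 29.99 to 44.6 at 42 h without D.

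Among nameless members of this class, DN5826_c0_g1 had 14.6, 16.2 and 16.8 in quiescent libraries, against 1.47, 1.35, 1.57, 1.34 and 1.23 at 3 h. Its values stayed at 0.580 to 2.25 over 7 h, 14 h and 24 h and at 1.47 to 5.44 in the other 42 h libraries, while it reached 24.6 in 42 h D. DN1386_c0_g1, chosen for display after its values were seen as the highest mean of this class, had 257, 335 and 314 in quiescent libraries, against 27.5, 35.1, 53.5, 41.2 and 37.5 at 3 h. No other library exceeded 95.1, except 42 h D with 314. DN2990_c0_g1 had 22.8, 27.8 and 32.9 in quiescent libraries, against 1.97 to 4.49 at 3 h, 3.83 to 11.2 at 42 h without D and 16.9 in 42 h D. In the class as a whole, 42 h D lay above every 3 h value in 23 of 30 members, and within 2 times of the quiescent mean in 19. In the other 42 h libraries these counts were 8 to 13 and 3 to 4, and the shares over all genes were not computed.

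The highest ratio to 3 h, 23.2 for DN8598_c0_g1, rested on 1 library. It had 1.01, 1.54 and 14.9 in quiescent libraries A, C and D, against 0 to 0.518 at 3 h, and 59.1 and 43.0 in 42 h B and E. DN22271_c2_g2, with the next ratio of 17.05, had 4.29, 5.35 and 9.80 in quiescent libraries, against 0.0980 to 0.686 at 3 h and 0.0820 to 1.22 at 7 h, with no overlap. Of the 30 members, 22 had every quiescent value above every value of 3 h, 7 h, 14 h and 24 h. The rule and the cut favour this, and 3.74% of all genes had it against 7 h and 14 h alone. In 7 of the 30 members the 42 h mean without D was above the quiescent mean.

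At the other end, DN3235_c0_g1, DN7936_c0_g1, DN2906_c0_g1 and DN1608_c0_g1 carry a predicted signal peptide and no match, and DN710_c0_g1 carries neither. DN2906_c0_g1 had 16.9, 16.3 and 14.1 in quiescent libraries, against 88.8, 109, 111, 103 and 109 at 3 h and 6.11 to 9.43 at 7 h. DN710_c0_g1 had 4.80, 6.22 and 6.27 in quiescent libraries, against 38.2 to 47.5 at 3 h. Their 3 h means were 6.59 and 7.37 times the quiescent means, and neither overlapped. In DN3235_c0_g1 the quiescent libraries differed among themselves, with 5.75 in A, 29.7 in C and 14.2 in D, against 115 to 217 at 3 h.

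Quiescent eggs at 26 h can also be set beside developing eggs of like age at 24 h, again with no test because the quiescent libraries chose the members. In 129 members every quiescent value lay above every 24 h value, which held for 8.47% of all genes, and the median ratio of means was 9.15. The single member with every quiescent value below every 24 h value was DN38201_c0_g1, with 23.0, 17.3 and 26.0 in quiescent libraries against 27.1, 39.6, 43.0 and 31.4 at 24 h. For 37.3% of all genes quiescent eggs were below 24 h eggs in this way. Against 42 h without D, 127 members had every quiescent value above every 42 h value (7.95% of all genes) and 2 had every value below (74.9% of all genes). With D included, the first count was 20, and its share over all genes was not computed.

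Tests were run between developing stages, whose 3 h, 24 h and 42 h libraries the rule did not use. They ask how the members behave from cleavage to the late embryo. All genes in the tables had been selected by the authors as changed on these samples, so a call is not independent evidence of change. Of 140 members, limma on log2(value + 1) called 111 lower and 4 higher at 24 h than at 3 h, with adjusted p under 0.05 over 5258 genes. Among all genes tested, 14.7% were called lower and 26.7% higher, and among the 869 other genes with a quiescent mean of at least 3 it was 34.6% and 43.7%. The median change of the members was -3.35 on the log2 scale, against 0.30 for all genes tested. edgeR on the recovered reads called 101 members lower and 5 higher, and all 101 were among the 111. Over all 5258 genes edgeR called 744 lower and 2105 higher. Without 42 h D, which lends the fit part of its spread, limma called 114 lower and 6 higher (15.6% and 38.4% of all genes).

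**Figure D4:**
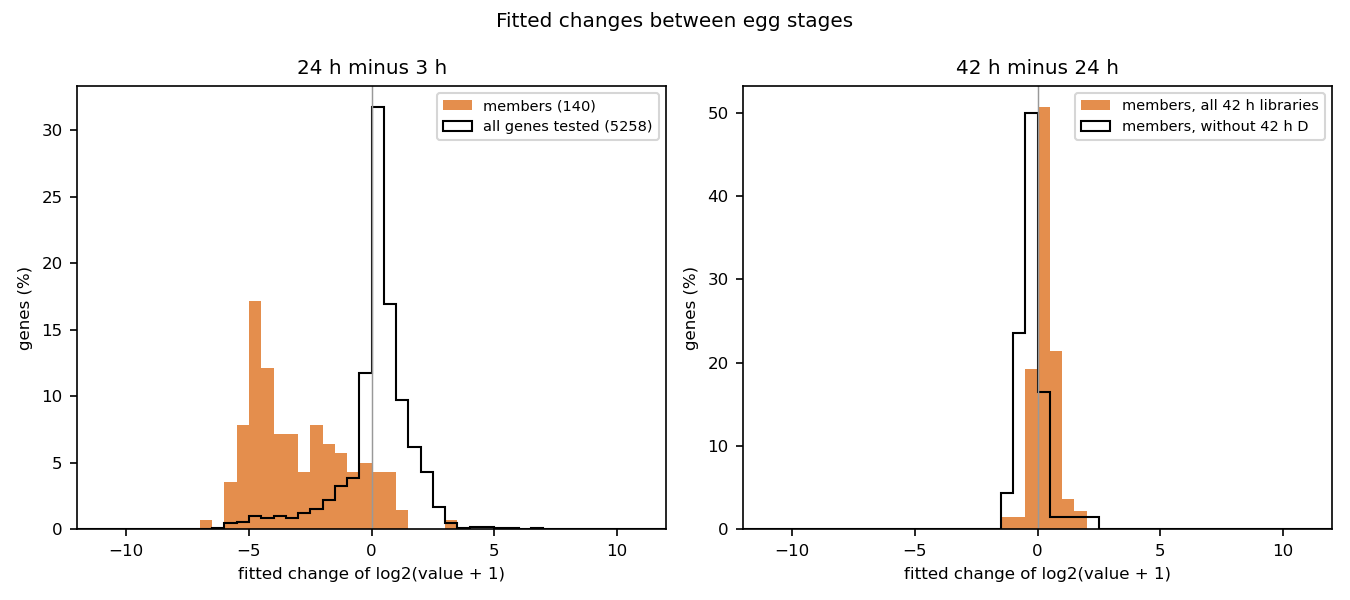
Fitted changes of log2(value + 1). Left, 24 h minus 3 h for the 140 members (orange) and all 5258 genes tested (black outline), as percent of genes: the members lie mostly below 0, with a median of -3.35 against 0.30. Right, 42 h minus 24 h for the members with all 42 h libraries (orange) and without D (black outline): the median was 0.31 with D and -0.33 without it.

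By class, all 62 members at most 1/2 of 3 h and 47 of the 48 within 2 times were called lower at 24 h, and of the 30 members at least 2 times 3 h 4 were called higher, 2 lower and 24 neither. These counts are no support for the classes, since both use the 3 h libraries. On the log2(value + 1) scale, which understates changes of low genes, the largest fall was that of DN25611_c0_g1, with 3.70, 4.46, 9.18 and 5.63 at 24 h against 436, 606, 731, 593 and 634 at 3 h (log2 change of -6.52, SE 0.84, limma adjusted p = 9.20e-07). In quiescent eggs it had 184, 179 and 207, between the stages and apart from both. By edgeR DN6266_c0_g1 changed more (-8.37, against -6.71 for DN25611_c0_g1), and DN54596_c0_g1 and DN17504_c1_g1 were at 0 in all 4 libraries of 24 h, so that this order depends on the scale. DN2498_c0_g1, a LPMO_10 member, changed by -4.73 (SE 0.50, limma adjusted p = 3.91e-08) and the H1 match DN12273_c0_g2 by -4.54 (SE 0.43, limma adjusted p = 5.00e-09). DN3637_c0_g1, the ADAM29 match, changed by -2.98 (SE 0.56, limma adjusted p = 0.000143) and DN906_c0_g1, the DBP match, by -3.28 (SE 0.44, limma adjusted p = 1.84e-06). Each of these lay lower in 4 of 4 libraries of 24 h than in all 5 of 3 h.

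The 4 members called higher at 24 h all belonged to the class at least 2 times 3 h. DN38201_c0_g1 changed by 3.01 (SE 0.56, limma adjusted p = 0.000138), with the 24 h values given above and 1.83 to 5.34 at 3 h. DN1890_c1_g1 had 4.78, 5.29, 4.24 and 3.98 at 24 h, against 1.26 to 1.69 at 3 h (log2 change of 1.17, SE 0.30, limma adjusted p = 0.00258). DN4873_c0_g1 carries a fasciclin domain, known from cell adhesion proteins, and matches a cyanobacterial protein; it had 1.18 to 3.08 at 24 h, against 0.5 to 0.887 at 3 h (0.90, SE 0.34, limma adjusted p = 0.0332). DN2990_c0_g1 had 3.97 to 8.55 at 24 h, against 1.97 to 4.49 at 3 h, with an overlap (0.95, SE 0.34, limma adjusted p = 0.0252). Its change turned to -0.06 when the libraries were rescaled by median ratios, which moved the median of all genes to 0.00 and left 1 member called higher.

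Between 24 h and 42 h the calls among the members turned with library D and with the tool. With all libraries, limma called 5 members higher and 1 lower at 42 h (44.4% and 5.38% of all genes tested), with a median of 0.31 against 0.65 for all genes. Without 42 h D it called 7 higher and 21 lower (61.9% and 6.35% of all genes), with a median of -0.33 against 0.91. edgeR with all libraries called 24 members higher and 0 lower, with 49 members at an unadjusted p under 0.05. Without D it called 7 higher and 20 lower. Of the 5258 genes tested, edgeR called 1983 higher and 160 lower, and without D 2755 and 256. With the spread of these 2 groups alone, limma called 0 members in either direction, and 3 members had an unadjusted p under 0.05. DESeq2 called 40 members higher and 0 lower. Over all genes the counts were 143 higher and 19 lower with that spread, and 2368 and 210 by DESeq2.

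Of the 5 called higher at 42 h, DN1890_c1_g1 had 16.8, 23.9, 31.1, 7.26 and 21.03 at 42 h, against 3.98 to 5.29 at 24 h (1.79, SE 0.30, limma adjusted p = 0.000208). It passed its quiescent mean of 11.6 ± 1.87 (SD, n = 3) in 4 of 5 libraries, D being the exception. DN602_c0_g1, with the TauD domain, changed by 1.13 (SE 0.30, limma adjusted p = 0.00307) and had 15.1 in 42 h D, its lowest value at 42 h. DN22271_c2_g2 changed by 1.47 (SE 0.44, limma adjusted p = 0.00827), with 21.9 in 42 h C and 1.43 in D. DN154191_c0_g1 (1.79, SE 0.72, limma adjusted p = 0.0402) ranged from 11.1 to 79.5 at 42 h, and in DN260_c6_g1 the call was lost without D (limma adjusted p = 0.0587). DN38201_c0_g1 was called lower (-1.49, SE 0.56, limma adjusted p = 0.0317), with 1.41 in D, and without D the call was lost (limma adjusted p = 0.0727). With any library of these stages other than 42 h D left out, the count called lower was 0 or 1.

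At 42 h against 3 h, limma called 114 members lower and 12 higher (14.8% and 75.2% of all genes tested), with a median change of -3.02 against 1.13. Without D the counts were 121 and 11 (15.7% and 78.2% of all genes), with medians of -3.66 and 1.43. With all libraries edgeR called 85 lower and DESeq2 77, and edgeR without D called 117. Of the 5258 genes tested, these fits called 683, 636 and 803 lower. The 12 called higher all belonged to the class at least 2 times 3 h and included DN602_c0_g1 and DN4873_c0_g1 of the named members. DN602_c0_g1, DN2990_c0_g1 and DN38201_c0_g1 turned to -0.04, -0.14 and -0.25 under median-ratio rescaling, which left 3 members called higher. The deposited values of all genes summed to 77483 and 84518 in 42 h D and A, and to 151084 to 259991 in 42 h B, C and E. They summed to 52381 to 98130 at 24 h and to 85926 to 121740 at 3 h. The 42 h comparisons therefore hold on the deposited scale.

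Of 19 lists of genes by role, 3 held a member. The list of cell cycle and DNA replication matches held DN17026_c0_g1, the ribonucleotide reductase match, and of its 7 tested genes 6 were called lower and 0 higher at 24 h against 3 h, beside 14.7% lower and 26.7% higher over all genes tested. DN17026_c0_g1 had 0 to 0.963 at 24 h, against 1.74 to 3.87 at 3 h (-1.31, SE 0.43, limma adjusted p = 0.0165), and 11.7 in 42 h D. The list of transcription factor and chromatin domains held DN906_c0_g1, and of its 27 tested genes 12 were called lower and 6 higher. The list of proteases other than those with a trypsin domain held DN3637_c0_g1, and of its 37 tested genes 2 were called lower and 8 higher. The other 16 lists held no member. The lists match fixed words in the names and 125 members carry no name, and members with SRSF2, BTF3L4, linker histone, LPMO_10 and fasciclin names were on none of them, so that an empty list does not show the role to be absent.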

How the data were processed

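The authors deposited normalized signal values for 26 libraries, in 2 tables of assembled genes that they had selected (alpha 0.001, fold change 2, per the labels). Tools in the submitters' processing notes are bcl2fastq and edgeR. Aligner, counting tool, scaling and versions are not given in the sources. The tables share 2689 genes with identical values. Within a library 1 read was worth 0.00894 to 0.0122, and values of at most 2000 reads were whole in 100% of cases, with a tolerance of 0.1 read. Reads in the tables came to 4.32e+06 to 2.42e+07 per library, which is not full depth.

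Members, role lists and the naming rule were chosen with earlier results of these data known. Named are all members with a match, domain or role list, and of the others the 5 highest, the 5 largest and smallest ratios to 3 h and the 5 largest calls per contrast and direction. Genes that reached 1 in 3 or more libraries (all 140 members) were tested with limma 3.58.1 in R 4.3.3 (trend, robust) on log2(value + 1), which understates changes of low genes, with a group term over all libraries and Benjamini-Hochberg adjustment. edgeR 4.0.16 and DESeq2 1.42.0 ran on recovered reads as alternatives. The fits were also run on simulated data with no outlying library and no split by letters. Those runs therefore do not bear on 42 h D or on the sets of letters. Python 3.11.15 computed ratios, which use group means. No sequences were used here.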

Additional observations from a re-analysis of the deposited data

Results flagged for a closer look

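Of 200 groups of 4 or 5 libraries examined, over the named members and the summed level, 37 had 1 library far from the others by Dixon's criterion; chance flags about 1 in 20. Of these, 26 were library D at 42 h, always as the highest. The summed level of the members was 9558 in 42 h D. Among members of high level, 42 h D had 1286 for DN23686_c0_g1, 1129 for DN67392_c0_g1, 718 for DN7087_c0_g1, 469 for DN2533_c0_g2 and 420.1 for DN8621_c0_g1. It had 289 for DN25611_c0_g1, 190.1 for DN2533_c0_g1, 114 for DN1608_c0_g1, 83.9 for DN5614_c3_g1, 79.1 for DN116527_c0_g1, 72.0 for DN11170_c0_g1 and 52.3 for DN8621_c1_g1. Among named members it had 38.8 for DN3637_c0_g1 (ADAM29 match), 13.5 for DN2498_c0_g1 and 7.86 for DN227_c1_g1 (both LPMO_10), 11.9 for DN906_c0_g1 (DBP match), 11.7 for DN17026_c0_g1 (ribonucleotide reductase match), 4.00 for DN3618_c0_g1 (fucosyltransferase match) and 2.52 for DN2495_c3_g1 (tubulin match). The remaining flags of 42 h D were 24.6 for DN5826_c0_g1, 23.2 for DN2906_c0_g1, 21.4 for DN260_c6_g1, 18.9 for DN7936_c0_g1, 13.7 for DN3235_c0_g1 and 9.98 for DN710_c0_g1.

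The other 11 flags were spread over the stages. Library 3 h C had 4.49 for DN2990_c0_g1, 0.518 for DN41587_c0_g1 and 97.4 for DN5614_c3_g1. Library 7 h B had 107.5 for DN154191_c0_g1 and 5.84 for DN602_c0_g1. At 14 h, A had a summed member level of 1218, B had 2.22 for DN1890_c1_g1 and E had 1.89 for DN4873_c0_g1. At 24 h, A had 2.25 for DN5826_c0_g1, and D had 106 for DN67392_c0_g1 and 7.82 for DN8598_c0_g1.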

How the results depend on the processing

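The number of genes meeting the rule was 248 at a ratio of 1.5, 69 at a ratio of 3 and 91 at a quiescent mean of 10. Leaving out 1 library gave 125 to 166 genes, with 29 to 34 members at least 2 times 3 h, 43 to 51 within 2 times and 57 to 68 at most 1/2. Median-ratio rescaling gave 155 genes by the rule and quantile normalization 119, of which 116 and 97 were members. Quantile normalization put 81 members within 2 times of 3 h and 24 at most 1/2. For 24 h against 3 h, the count called lower was 107 to 111 when 1 library was left out, and the count called higher was 2 to 4; it was 1 under median-ratio rescaling, 9 with the spread of the 2 groups alone, 7 by edgeR without 42 h D and 7 without the D libraries of 24 h and 42 h. The last 2 settings were chosen after seeing the data. Over all 5258 genes, the counts called higher in these settings were 918, 2396, 2444 and 1984. For 42 h against 24 h, leaving out 1 library gave 3 to 7 called higher and 0 to 21 lower. The count called higher was 24 by edgeR, 40 by DESeq2, 1 under median-ratio rescaling, 1 under quantile normalization and 0 with the spread of the 2 groups alone; the count called lower was 0, 0 and 0 by edgeR, by DESeq2 and with that spread, 2 under quantile normalization, 20 by edgeR without 42 h D and 12 without both D libraries. For 42 h against 3 h, leaving out 1 library gave 10 to 12 higher and 107 to 121 lower, edgeR called 85 and DESeq2 77 lower, and the count called higher was 3 under median-ratio rescaling, 4 under quantile normalization and 7 with the spread of the 2 groups alone. Median-ratio rescaling reversed DN2990_c0_g1 in 24 h against 3 h (-0.0557), and DN2990_c0_g1 (-0.14), DN38201_c0_g1 (-0.25) and DN602_c0_g1 (-0.0381) in 42 h against 3 h. Over all genes tested, 42 h against 24 h had 1346 called higher under median-ratio rescaling and 1066 under quantile normalization. Called lower were 845 under quantile normalization and 362 without both D libraries. For 42 h against 3 h the counts called higher under these 2 scalings were 1602 and 1841, and 3609 with the spread of the 2 groups alone. Where no construction of the setting shows it, the cause was not tested.

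Letters A to E are shared by stages, but same-lettered libraries did not deviate together (correlations of -0.39 to 0.23 for 24 h and 3 h), and at most 2 libraries of the later stage correlated best with their own letter in any contrast, so single letters do not pair the libraries. The sets of letters are a separate matter: 16 members met the rule in letters A and B alone and 32 in letters C, D and E alone. With a replicate block the counts called lower and higher were 113 and 4 for 24 h against 3 h, 1 and 5 for 42 h against 24 h, and 115 and 12 for 42 h against 3 h. In the same order, the counts over all 5258 genes were 769 and 1463, 275 and 2296, and 781 and 3963. The lowest quiescent value of any member rested on 76 reads, while a comparison with quiescent eggs rests on at most 3 quiescent libraries. Within letters A and B it rests on 1, and within letters C, D and E on 2.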
